A study of Mus musculus with 10 samples.

Results

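The members described here are the proteasome subunits and the ubiquitin-conjugating enzymes measured in gastrocnemius muscle, the large calf muscle, of mdx and normal mice. They were chosen by name: every probe set annotated to 1 gene whose symbol starts with Psma, Psmb, Psmc, Psmd or Ube2, apart from the immunoproteasome subunits Psmb8, Psmb9 and Psmb10. This gave 74 probe sets of 56 genes, out of 12422 probe sets that are no array controls. By class they were 19 probe sets of the 20S core (14 genes), 26 of the 19S cap (21 genes) and 29 of the Ube2 enzymes (21 genes). Another 3 probe sets that name a Ube2 gene beside other genes were left out. The mice were males of 16 weeks, 5 arrays of normal animals, called control below, and 5 of mdx animals, which lack dystrophin through a stop mutation in its gene. The labels name neither the strain of the normal mice nor a treatment or batch, and leave unsaid whether each array stands for its own animal. The p-values therefore speak only for the variation among these arrays, part of which may be technical.

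Proteins that are to be degraded are tagged with ubiquitin by a relay of enzymes. An activating enzyme (E1) charges a conjugating enzyme (E2, most of them named Ube2), which hands ubiquitin to the target with the help of a ligase (E3). The proteasome takes up the tagged protein. Its 19S cap recognises, unfolds and feeds the protein into the 20S core, a barrel of outer alpha rings (Psma) and inner beta rings (Psmb), and the beta rings carry the cutting sites. In skeletal muscle this pathway removes damaged and surplus fibre proteins and is known for its part in wasting.

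Of the 74 probe sets, 65 passed the filter on low values (intensity above 134.3 on any 5 or more of 10 arrays) and were tested. They covered 54 genes, with 17 probe sets in the core, 24 in the cap and 24 among the Ube2 enzymes. The other 9 had group means of at most 95.7. They were the only probe sets of Psmd2, a base subunit of the cap, and of Psmc3ip, a recombination factor that shares only the first letters of its symbol with the cap, and further probe sets of Psmb1, Psmb4, Ube2d2a, Ube2o (with 2), Ube2v2 and Ube2z. Changes are given on the scale log2(intensity + 373.2), mdx minus control, where 373.2 is a noise level taken from the values below 0. This scale understates the change of dim probe sets. A probe set counts as called when its limma adjusted p, over all 7612 probe sets tested, is below 0.05. The letters in a probe set's name mark its make: _f_at and _s_at probes can match related sequences, and _r_at, _i_at and _g_at sets were built under relaxed rules or share probes.

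The muscle identity of the samples was clear in both groups, since 16 of 16 mature fibre markers, among them Ckm and Acta1, were measured above the noise level, and their summed intensity ranged from 370000 to 620500 in control and from 287600 to 426800 in mdx. Of these 16 genes 12 were called lower as deposited and 4 after quantile normalization. Other cells and immature fibres moved with genotype. With the brightest probe set standing for each gene, 16.1% of all genes tested were called higher and 18.6% lower as deposited. Of 17 macrophage markers 16 were called higher, with summed intensities of 5678 to 10010 in control and 74550 to 100200 in mdx. At least Cd53 and Ptprc, with control means of 15.4 ± 50.6 and 20.9 ± 29.1 (SD), passed the filter on low values through their mdx arrays. Their calls are therefore no independent support. Of 11 fibroblast markers 9 were called higher and 2 lower (47540 to 61060 against 103700 to 117200), and of 9 markers of immature fibres 7 were called higher (14720 to 21900 against 47730 to 59280). After quantile normalization 10 fibroblast markers were called higher and 1 lower, as Dcn turned from -0.34 (limma adjusted p = 0.0294) to 0.14 (adjusted p = 0.0435). Of 9 endothelial markers 1 was called higher and 2 lower (7637 to 9487 against 6675 to 8006), of 3 tested adipocyte markers 1 higher and 1 lower (22700 to 29460 against 15640 to 18060), and of 2 red blood cell markers 1 lower (17510 to 31490 against 8957 to 15100). Retn, among the adipocyte markers, was below the noise level on all arrays. The part of these cells in the members' changes was not tested, and in a piece of muscle fewer cells of a type and less RNA per cell cannot be told apart.

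Some whole-array values differed between groups. Values below 0 made up 23.4% ± 0.41 in control and 20.8% ± 1.1 in mdx (SD, n = 5, two-sided exact permutation p = 0.00794). These values were set to 0 before the log, and the part of this difference in the changes of dim members was not tested. The arrays' trimmed mean intensities were 800.7 to 800.9 on 9 arrays and 723.1 on mdx replicate 1. The 99th percentile of intensity was 19740 ± 1053 in control and 16390 ± 1343 in mdx (SD, n = 5, two-sided exact permutation p = 0.0159), whereas quantile normalization gives all arrays the same distribution. The bacterial hybridization controls, added in fixed amounts, read 11290 ± 1382 in control and 7256 ± 909 in mdx (exact permutation p = 0.00794, the smallest possible for 5 against 5). Scaling to them moved the median change of all 7612 probe sets from -0.03 to 0.35 and the calls from 1202 higher and 1352 lower to 3527 (46.3%) and 125 (1.64%). Of the 12 falls among the members described below, 6 changed sign under it and 6 did not. RNA quality, read as the actin probe set at the transcript's 3' end over that at its 5' end, was 1.13 ± 0.038 in control and 1.02 ± 0.048 in mdx (exact permutation p = 0.0159). The same ratio of Gapdh was 0.735 ± 0.060 and 0.732 ± 0.041 (exact permutation p = 0.921). The part of the actin ratio in the results was not tested.

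The share of members called was not above that of all probe sets in total, and no test of the set was made. As deposited, 18 of the 65 (27.7%) were called, against 33.6% of all 7612 probe sets tested. Of these, 6 were higher in mdx (9.23%, against 15.8% of all) and 12 lower (18.5%, against 17.8%). After quantile normalization 17 (26.2%, against 33.1%) were called, 9 higher (13.8%, against 15.3%) and 8 lower (12.3%, against 17.7%). The groups did not overlap for 16 members (24.6%, against 25.1% of all), 6 with mdx above (9.23%, against 12.3%) and 10 with mdx below (15.4%, against 12.7%). After quantile normalization this held for 14 members (21.5%, against 24.3%), 6 above (against 12.2%) and 8 below (against 12.1%). The median change was -0.11 over the 65 members and -0.03 over all probe sets, and -0.08 against -0.06 after quantile normalization. Scaled to the hybridization controls, 37 of the 65 members were called higher and 0 lower, with a median of 0.38. Of all probe sets, 46.3% were called higher and 1.64% lower under this scaling, with a median of 0.35.

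The members were mostly bright. Of the 65, 34 had a mean intensity of at least 2104, a level reached by 1523 of the tested probe sets, of which 43.5% were called lower and 15.5% higher as deposited, and 31.4% and 20.2% after quantile normalization; their median change was -0.23 and -0.10. Among these 34 members 10 were called lower and 3 higher as deposited, and 6 and 6 after quantile normalization. Among the other 31, 2 were lower and 3 higher under both. Over the 4 dimmer groups of equal size, 4.07% to 20.5% of all probe sets were called lower and 12.3% to 18.4% higher as deposited, and 7.42% to 21.1% and 9.52% to 18.3% after quantile normalization. The classes were spread unevenly over brightness: 14 of the 34 bright members belonged to the core, 14 to the cap and 6 to the Ube2 enzymes.

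**Figure D1:**
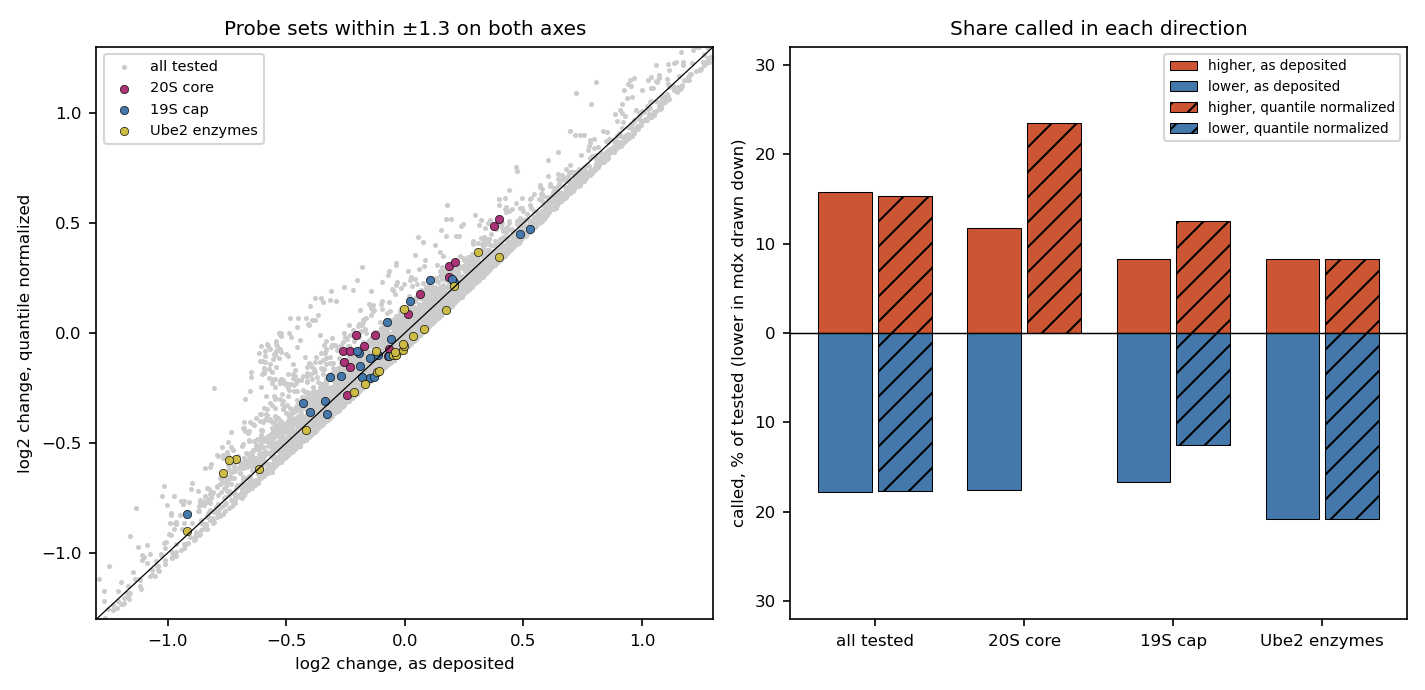
Left, the log2 change (mdx minus control) as deposited on the x axis and after quantile normalization on the y axis, grey for all tested probe sets and coloured for the 3 classes, with the line of equal values and both axes ending at 1.3. Right, the percent of tested probe sets called higher (up) and lower (down) in mdx under each scaling. The core goes from 3 lower calls of 17 to 0, and the Ube2 enzymes have 5 of 24 under both, beside 17.8% and 17.7% of all probe sets. No member was called lower when scaled to the hybridization controls, beside 1.64% of all probe sets.

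The counts by class follow as a description, with no test of the classes against each other. Of all probe sets tested, 15.8% were called higher and 17.8% lower as deposited, and 15.3% and 17.7% after quantile normalization. The core had 2 of 17 called higher (11.8%) and 3 lower (17.6%) as deposited, with a median of -0.07. After quantile normalization it had 4 (23.5%) and 0, with a median of -0.01. The cap had 2 of 24 higher (8.33%, both assembly chaperones) and 4 lower (16.7%), and then 3 and 3 (12.5% each), with medians of -0.15 and -0.11. The Ube2 enzymes had 2 of 24 higher (8.33%) and 5 lower (20.8%) under both, with medians of -0.05 and -0.09. Scaled to the hybridization controls, the medians were 0.44, 0.38 and 0.28, beside 0.35 for all probe sets.

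**Figure D2:**
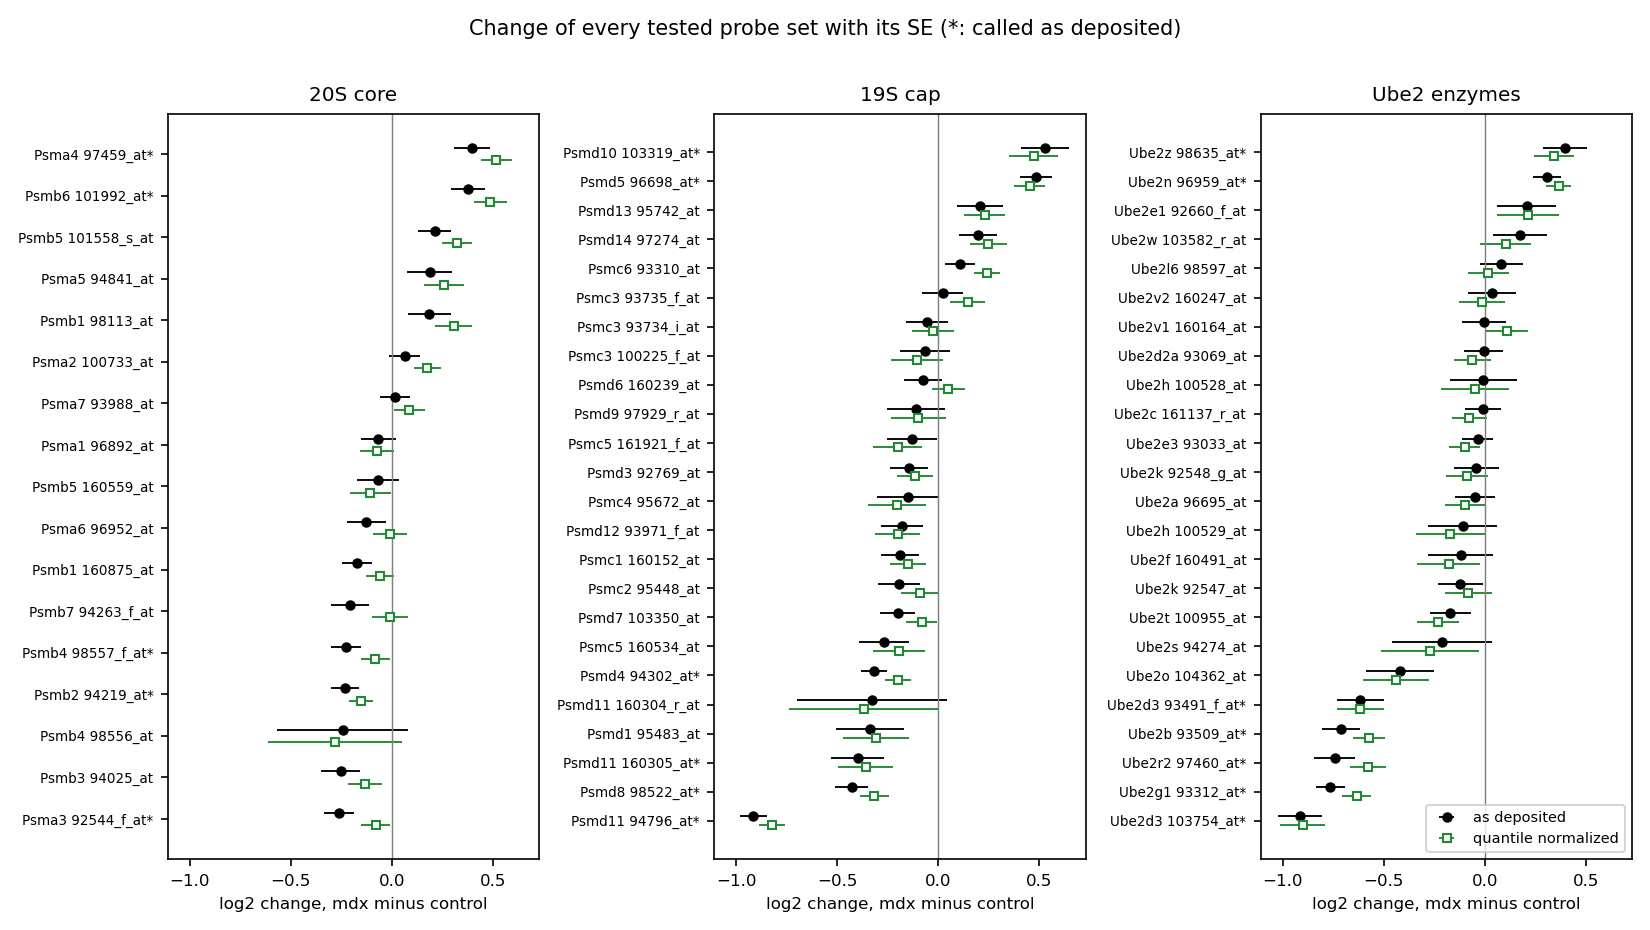
The log2 change (mdx minus control, x axis) of each tested probe set with its SE, as deposited (filled) and quantile normalized (open), for the 17 core, 24 cap and 24 Ube2 probe sets; an asterisk marks a call as deposited. The lowest values in the cap and Ube2 panels, -0.92 for Psmd11 and for Ube2d3, lie apart from most other members.

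Proteasome genes are known targets of the factors Nfe2l1 and Nfe2l2, which bind the antioxidant response element. The promoters of 3 proteasome genes called higher under at least 1 scaling are shown because they hold this element's core letters, and those of Psma4 and Psmd11 because they do not, so the 5 do not represent the members. They come from RefSeq (build GRCm38.p6) and run 5′ to 3′ from 250 bases before to 50 after the gene's start; 45 of the 56 member genes matched, with 53 promoters. Capitals mark each match to TGACNNNGC, the core letters of that element, on either strand. Psmb6, Psmb5 and Psmc6 hold 1 match each. Psma4, the core gene with the largest rise as deposited, and Psmd11, the cap gene with the largest fall, hold none in this window.
Psmb6, chr11:70525107-70525406, plus strand: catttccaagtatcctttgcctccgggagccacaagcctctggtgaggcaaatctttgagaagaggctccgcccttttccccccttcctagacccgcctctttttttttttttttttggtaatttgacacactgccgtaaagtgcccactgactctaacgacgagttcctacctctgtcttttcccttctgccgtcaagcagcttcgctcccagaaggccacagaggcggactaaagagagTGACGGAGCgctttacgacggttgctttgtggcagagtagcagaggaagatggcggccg
Psmb5, chr14:54617946-54618245, minus strand: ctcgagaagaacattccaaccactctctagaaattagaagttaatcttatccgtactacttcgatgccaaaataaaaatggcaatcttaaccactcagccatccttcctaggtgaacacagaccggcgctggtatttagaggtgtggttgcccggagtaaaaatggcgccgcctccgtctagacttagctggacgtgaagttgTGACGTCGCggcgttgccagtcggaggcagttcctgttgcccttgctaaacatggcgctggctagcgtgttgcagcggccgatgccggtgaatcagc
Psmc6, chr14:45329574-45329873, plus strand: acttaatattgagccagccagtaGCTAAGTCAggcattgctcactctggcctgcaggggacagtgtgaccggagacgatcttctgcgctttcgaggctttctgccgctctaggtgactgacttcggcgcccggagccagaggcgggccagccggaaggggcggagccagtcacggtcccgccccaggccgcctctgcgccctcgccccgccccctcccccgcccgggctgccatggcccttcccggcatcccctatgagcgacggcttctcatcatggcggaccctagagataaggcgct
Psma4, chr9:54950609-54950908, plus strand: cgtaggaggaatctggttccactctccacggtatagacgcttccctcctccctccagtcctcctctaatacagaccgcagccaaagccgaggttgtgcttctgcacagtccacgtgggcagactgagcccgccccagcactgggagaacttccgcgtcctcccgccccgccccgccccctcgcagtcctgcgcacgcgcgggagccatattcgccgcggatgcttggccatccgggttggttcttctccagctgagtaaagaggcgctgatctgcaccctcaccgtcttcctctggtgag
Psmd11, chr11:80428365-80428664, plus strand: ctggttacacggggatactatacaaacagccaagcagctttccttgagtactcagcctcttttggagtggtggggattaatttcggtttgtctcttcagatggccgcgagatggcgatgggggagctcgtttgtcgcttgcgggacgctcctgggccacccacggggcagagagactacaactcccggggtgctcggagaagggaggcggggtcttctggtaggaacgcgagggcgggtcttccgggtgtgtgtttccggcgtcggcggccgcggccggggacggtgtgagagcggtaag

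The match reads TGACGGAGC in Psmb6, TGACGTCGC in Psmb5 and, on the other strand, GCTAAGTCA in Psmc6. It was found in 7 of the 53 member promoters (13.2%), against 12.4% of all 32851 promoters in the table. By class these were 2 of 12 in the core (Psmb5 and Psmb6), 3 of 19 in the cap (Psmc6, Psmd9 and Psmd12) and 2 of 22 among the Ube2 enzymes (Ube2f and Ube2v1). Of these 7 genes, Psmb6 was called higher as deposited, Psmb5 and Psmc6 were called higher after quantile normalization only, and the other 4 were called under neither. CCAAT, searched likewise on both strands, was in 17 of the 53 (32.1%) against 37.4% of all, with 6 of 12 in the core, 6 of 19 in the cap and 5 of 22 among the Ube2 enzymes. A match is a run of letters and not a measured site.

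In the core, the alpha ring showed 1 rise and, as deposited, 1 fall among its 7 genes. Psma4, a structural alpha subunit, rose. It read 3493, 4146, 4172, 4152 and 4011 on the control arrays and 4451, 5957, 5139.6, 5448 and 6023 on the mdx arrays. All mdx arrays lay above all control arrays, and control replicate 1 was the lowest of its group. The log2 change was 0.40 (SE 0.09, limma adjusted p = 0.00394) as deposited and 0.52 (adjusted p = 2.30e-04) after quantile normalization. Psma3, another alpha subunit, was measured by an _f_at set that read 9775, 9656, 10167, 9145 and 11431 on the control arrays and 8404, 8173, 8919, 8152 and 7837 on the mdx arrays. The mdx arrays lay below all control arrays as deposited and overlapped them after quantile normalization. The change was -0.26 (SE 0.07, limma adjusted p = 0.0148) as deposited and -0.08 (adjusted p = 0.418) after quantile normalization, and it turned to 0.35 under scaling to the hybridization controls. The other 5 alpha genes did not pass the test under either scaling: Psma1 stood at -0.07, Psma2 at 0.06, Psma5 at 0.19, Psma6 at -0.13 and Psma7 at 0.02 as deposited. Psma5 was called without mdx replicate 1 (0.28, adjusted p = 0.0413).

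In the beta ring, the genes of the cutting subunits did not all get the same call as deposited. The differences between them were not tested. Psmb6, which carries the caspase-like site, rose. It read 3910.2, 4459, 3327, 4435 and 4252 on the control arrays and 5252, 5589, 5761, 4998 and 5294 on the mdx arrays. Every mdx array was above every control array. The change was 0.38 (SE 0.08, limma adjusted p = 0.0041) as deposited and 0.49 (adjusted p = 5.61e-04) after quantile normalization. Psmb5, the chymotrypsin-like subunit and main target of proteasome inhibitor drugs, read 4579.5, 4471, 3744, 4243 and 4758 on the control arrays and 4678, 5243, 5344, 5667 and 4596 on the mdx arrays with its brighter set. The groups overlapped as deposited, with mdx replicates 1 and 5 inside the control range, and did not after quantile normalization. The change was 0.21 (SE 0.08, limma adjusted p = 0.0691) as deposited and 0.32 (adjusted p = 0.00539) after quantile normalization, and without mdx replicate 5 it was 0.25 (adjusted p = 0.0487). Its dimmer set read 936, 845, 969, 925 and 931 on the control arrays and 752, 956, 748, 716 and 1188 on the mdx arrays. There the groups overlapped under both scalings, with 3 mdx arrays below and 1 above the control range as deposited. The change was -0.07 (SE 0.11, limma adjusted p = 0.662) as deposited and -0.11 (adjusted p = 0.448) after quantile normalization. Psmb7, the trypsin-like subunit, did not pass, at -0.21 (SE 0.09, limma adjusted p = 0.116) as deposited and -0.01 (adjusted p = 0.939) after quantile normalization. Without mdx replicate 2 it was called lower, at -0.27 (adjusted p = 0.0315). Scaled to the hybridization controls, all these sets were called higher. Psmb6 stood at 0.97, Psmb5 at 0.80 and 0.38 and Psmb7 at 0.41, where the median of all probe sets was 0.35.

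Of the beta subunits that carry no cutting site, 2 fell as deposited and neither passed after quantile normalization. Psmb2 read 3961, 3944, 3718, 3642 and 3785 on the control arrays and 2834, 3515, 3239, 3319 and 3083 on the mdx arrays. The groups did not overlap under either scaling. The change was -0.23 (SE 0.07, limma adjusted p = 0.0221) as deposited and -0.15 (adjusted p = 0.0666) after quantile normalization; without control replicate 2 it was -0.22 (adjusted p = 0.0529), and scaled to the hybridization controls 0.35. Psmb4, measured by 3 probe sets, fell by its brightest, an _f_at set that read 8939, 9125, 7748, 9856 and 8667 on the control arrays and 7818, 7134, 7987, 7378 and 7172 on the mdx arrays. Here mdx replicates 1 and 3 lay above the lowest control array. The change was -0.23 (SE 0.07, limma adjusted p = 0.0315) as deposited and -0.08 (adjusted p = 0.421) after quantile normalization, it was lost when any of 7 single arrays was left out, and it turned to 0.38 under scaling to the hybridization controls. A dimmer set read 1145, 1261, 432, 481 and 1333 on the control arrays and 1121, 1096, 287, 207 and 1121 on the mdx arrays, with replicates 3 and 4 the lowest in both groups. It was not called, at -0.24 (SE 0.32, limma adjusted p = 0.609) as deposited and -0.28 (adjusted p = 0.55) after quantile normalization. Psmb1 gave opposite signs with its bright sets. The brighter of them read 5176, 5606, 4391, 5403 and 5397 on the control arrays and 4633, 6525, 5590.2, 6128 and 7107 on the mdx arrays, a change of 0.19 (SE 0.11, limma adjusted p = 0.213) as deposited and 0.31 (adjusted p = 0.0208) after quantile normalization. The other read 4897, 4902, 5884, 5464 and 5483 on the control arrays and 4419.9, 5154, 4832, 4659.8 and 4358 on the mdx arrays, a change of -0.17 (SE 0.07, limma adjusted p = 0.0997) as deposited and -0.06 (adjusted p = 0.551) after quantile normalization. The brighter set was called higher also without mdx replicate 1 (0.27, adjusted p = 0.0428). Psmb3 did not pass, at -0.25 (SE 0.10, limma adjusted p = 0.0586) as deposited and -0.13 (adjusted p = 0.255) after quantile normalization, but was called lower without mdx replicate 5 (-0.33, adjusted p = 0.00948), the only mdx array within the control range. Counted over the core, 4 probe sets were called higher without mdx replicate 1 in place of 2, and 1 lower without control replicate 2 in place of 3.

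**Figure D3:**
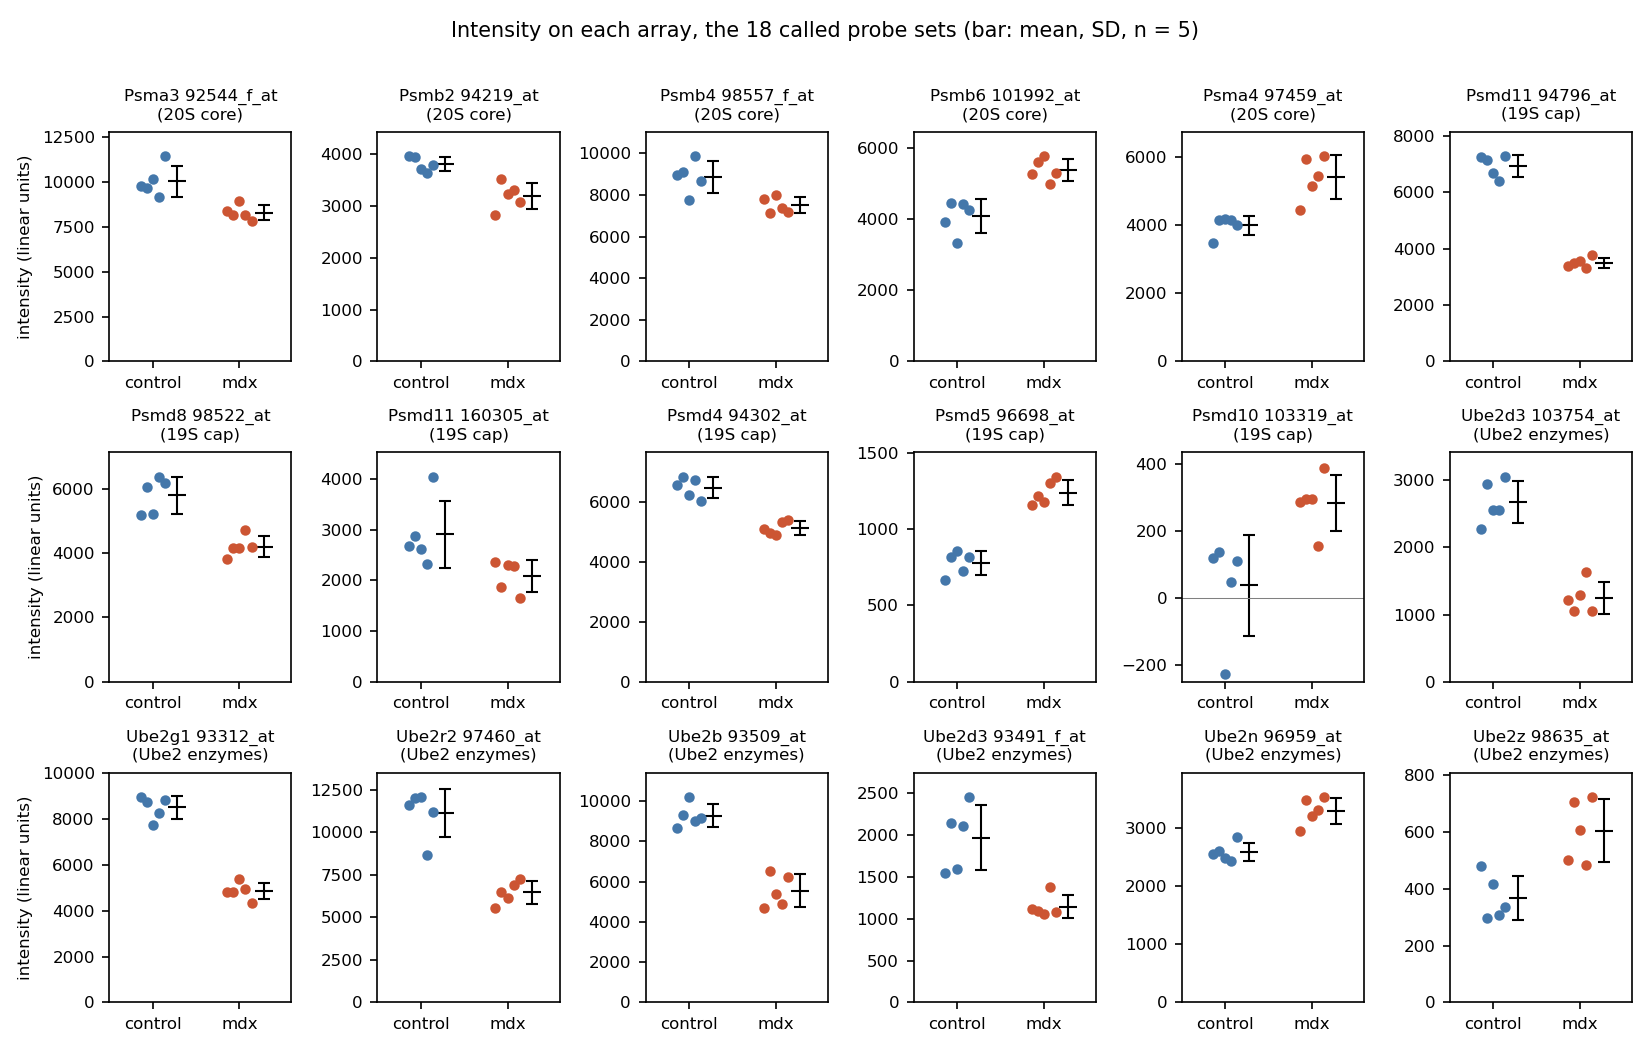
Intensity (y axis, linear units from 0 except for Psmd10) of the 18 probe sets called as deposited, for control (blue) and mdx (red), with each point 1 array and the bar the mean with its SD (n = 5). In 16 of the 18 panels the groups do not overlap (Psmb4 and the dimmer called set of Psmd11 do), and of the 12 falls drawn, 6 turned above 0 when scaled to the hybridization controls (Psma3, Psmb2, Psmb4, Psmd4, Psmd8 and the dimmer Psmd11 set).

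The ATPase ring of the cap (Psmc), which unfolds the substrate, gave no call as deposited: its 9 tested probe sets ranged from -0.27 (Psmc5) to 0.11 (Psmc6), with a median of -0.13. Psmc6 read 7010.4, 7451, 6391, 8235 and 7341 on the control arrays and 7471, 7854, 8433, 7800.4 and 7727 on the mdx arrays. The groups overlapped as deposited, through control replicate 4, and did not after quantile normalization. The change was 0.11 (SE 0.07, limma adjusted p = 0.302) as deposited and 0.24 (adjusted p = 0.0138) after quantile normalization. Psmc3 was measured by 3 sets, which overlapped between groups and were called under neither scaling. The brightest read 5721, 5966, 4450.3, 5159 and 5969 on the control arrays and 4655, 5166, 5659.5, 6209.8 and 5982 on the mdx arrays, a change of 0.02 (SE 0.10, limma adjusted p = 0.899) as deposited and 0.14 (adjusted p = 0.222) after quantile normalization. The middle one read 2118, 2183, 1793, 1861 and 2418 on the control arrays and 1706, 1938, 1983, 2517 and 1781 on the mdx arrays, a change of -0.06 (SE 0.10, limma adjusted p = 0.717) as deposited and -0.03 (adjusted p = 0.869) after quantile normalization. The dimmest read 691, 654, 572, 1088 and 853 on the control arrays and 736, 571, 815, 814 and 627 on the mdx arrays, a change of -0.06 (SE 0.12, limma adjusted p = 0.735) as deposited and -0.10 (adjusted p = 0.567) after quantile normalization. Their signs did not match. Psmc1 and Psmc2 stood at -0.19 each, Psmc4 at -0.15 and Psmc5 at -0.27 with its brighter set. Psmc1 was called lower without mdx replicate 4 (-0.26, adjusted p = 0.0316) and Psmc2 without control replicate 3 (-0.27, adjusted p = 0.0493).

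The Psmd genes, non-ATPase subunits and assembly chaperones, held the cap's calls as deposited. Psmd11, a lid subunit that helps hold the cap to the core, fell furthest. Its brightest set read 7241, 7157, 6682, 6391 and 7281 on the control arrays and 3381, 3493, 3573, 3318 and 3767 on the mdx arrays. The 2 groups were far apart, with no mdx array above 3767 and no control array below 6391. The change was -0.92 (SE 0.07, limma adjusted p = 5.64e-07) as deposited and -0.82 (adjusted p = 1.42e-06) after quantile normalization, and it kept its sign at -0.32 (adjusted p = 0.0651) under scaling to the hybridization controls. Its other 2 sets differed. The middle one in brightness read 2670.4, 2877, 2612, 2326 and 4037 on the control arrays and 2358, 1869, 2305, 2279.5 and 1655 on the mdx arrays. The groups touched at 2326 and 2358. The change was -0.40 (SE 0.13, limma adjusted p = 0.0343) as deposited and -0.36 (adjusted p = 0.0627) after quantile normalization, it was lost when any of 4 single arrays was left out (control replicates 2 and 5, mdx replicates 2 and 5; adjusted p up to 0.0805), and it turned to 0.15 under scaling to the hybridization controls. The dimmest, of the _r_at kind, scattered, at 281, 650.5, 448, 797 and 617 on the control arrays and 205, 1309.5, 74.2, 0.641 and 887 on the mdx arrays, with -0.33 (SE 0.37, limma adjusted p = 0.541) as deposited and -0.37 (adjusted p = 0.475) after quantile normalization.

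Psmd8, also of the lid, fell. It read 5167, 6043, 5196, 6362 and 6159 on the control arrays and 3809, 4140.2, 4140.0, 4707 and 4189.6 on the mdx arrays. No array of the groups overlapped. The change was -0.43 (SE 0.08, limma adjusted p = 0.0014) as deposited and -0.32 (adjusted p = 0.00517) after quantile normalization, and it turned to 0.17 under scaling to the hybridization controls. Psmd4, a ubiquitin receptor of the cap, fell. It read 6583, 6844, 6242, 6748 and 6028 on the control arrays and 5090.4, 4967, 4892, 5327 and 5404 on the mdx arrays, with no overlap as deposited and an overlap after quantile normalization. The change was -0.32 (SE 0.06, limma adjusted p = 0.00217) as deposited and -0.20 (adjusted p = 0.0292) after quantile normalization, and it turned to 0.28 under scaling to the hybridization controls. Psmd14, the lid enzyme that strips ubiquitin from the substrate, did not pass, at 0.20 (SE 0.09, limma adjusted p = 0.126) as deposited and 0.25 (adjusted p = 0.0575) after quantile normalization.

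As deposited, 2 genes of the cap class were called higher, Psmd5 and Psmd10, both chaperones of its assembly. Psmd5, which escorts the ATPase ring before the cap is built and is absent from the finished particle, rose. It read 669, 815, 859, 729 and 819.9 on the control arrays and 1156, 1216, 1175, 1302 and 1341 on the mdx arrays. Every mdx array was above every control array. The change was 0.49 (SE 0.08, limma adjusted p = 4.57e-04) as deposited and 0.45 (adjusted p = 7.02e-04) after quantile normalization. Psmd10, another assembly chaperone, known as gankyrin, read 119, 138, -227, 49.2 and 110.0 on the control arrays and 286, 295, 296, 157 and 388 on the mdx arrays. Both group means lay below the noise level of 373.2, so no fold is given, and control replicate 3 stood apart below 0. Psmd10 passed the filter through its mdx arrays, all above 134.3, while control replicate 2 alone of its group was above that value. Its adjusted p therefore belongs to a probe set that entered the test through the group where it is high. The groups overlapped after quantile normalization only. The change was 0.53 (SE 0.12, limma adjusted p = 0.00418) as deposited and 0.47 (adjusted p = 0.0102) after quantile normalization; with smaller and larger pseudocounts it ran from 0.89 to 0.31. Psmd9, a further chaperone of this kind, did not pass, at -0.11 (SE 0.14, limma adjusted p = 0.59) as deposited and -0.10 (adjusted p = 0.614) after quantile normalization. Psmd6, a lid subunit whose sign turned with the scaling, read 5722, 6319, 4897, 6039 and 6315 on the control arrays and 4575, 5762, 5405, 6234 and 5781 on the mdx arrays. The groups overlapped, and the change was -0.07 (SE 0.09, limma adjusted p = 0.59) as deposited and 0.05 (adjusted p = 0.672) after quantile normalization. Of the remaining lid and base genes, Psmd1 (-0.34), Psmd3 (-0.15), Psmd7 (-0.20), Psmd12 (-0.18) and Psmd13 (0.21) did not pass under either scaling. Psmd13 was called higher without mdx replicate 1 (0.32, adjusted p = 0.00896), which read 1466 beside 2245 to 2363 on the other mdx arrays, and Psmd7 lower without control replicate 1 (-0.26, adjusted p = 0.0288).

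**Figure D4:**
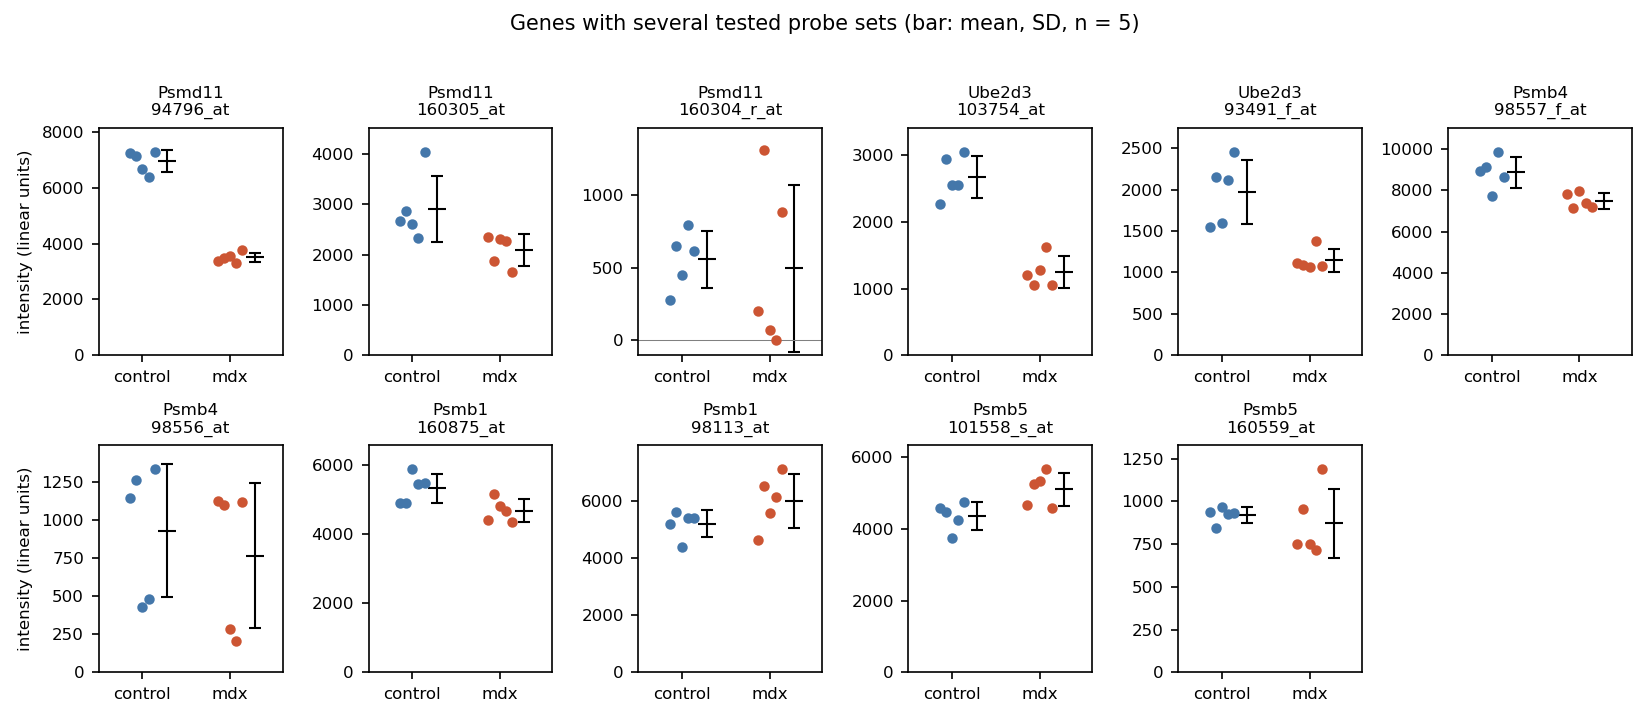
Intensity (y axis, linear units) on each array for genes with several tested probe sets, control blue and mdx red, with the mean and SD (n = 5). The 2 sets of Ube2d3 were both called lower as deposited and not when scaled to the hybridization controls (-0.39, adjusted p = 0.0521, and -0.11, adjusted p = 0.598), whereas the 3 sets of Psmd11 and the 2 of Psmb1 do not give 1 answer.

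Among the Ube2 enzymes, 4 genes fell by at least 0.57 on the log2 scale with their brightest sets, as deposited and after quantile normalization, and all 4 stayed below 0 under scaling to the hybridization controls, without passing the test there. Ube2d3 belongs to the conjugating enzymes that serve the widest range of ligases. Its brightest set read 2272, 2948, 2559, 2552 and 3049 on the control arrays and 1212, 1062, 1287, 1628 and 1052 on the mdx arrays. The lowest control array, at 2272, was above the highest mdx array, at 1628. The change was -0.92 (SE 0.11, limma adjusted p = 3.56e-05) as deposited and -0.90 (adjusted p = 6.23e-05) after quantile normalization, and -0.39 (adjusted p = 0.0521) scaled to the hybridization controls. Its other set, of the _f_at kind, read 1552, 2148, 1594, 2112 and 2453 on the control arrays and 1114, 1089, 1061, 1385 and 1076 on the mdx arrays, also without overlap. That change was -0.62 (SE 0.12, limma adjusted p = 0.00127) as deposited and -0.62 (adjusted p = 0.00153) after quantile normalization, and -0.11 scaled to the hybridization controls. Ube2d2a, its close relative, did not pass, at -0.00 (SE 0.10, limma adjusted p = 0.977) as deposited and -0.06 (adjusted p = 0.644) after quantile normalization, with a 95% interval from -0.22 to 0.21 as deposited; the difference between the relatives was not tested.

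Ube2g1, which builds degradative chains, read 8953, 8762, 7756, 8288 and 8823 on the control arrays and 4822, 4801, 5370.2, 4957 and 4356 on the mdx arrays. The groups lay apart, with control at 7756 or above and mdx at 5370 or below. The change was -0.77 (SE 0.07, limma adjusted p = 5.02e-06) as deposited and -0.63 (adjusted p = 3.46e-05) after quantile normalization, and -0.16 scaled to the hybridization controls. Ube2r2, a partner of the cullin ligases, read 11607, 12027, 12048, 8664 and 11185 on the control arrays and 5544, 6510.2, 6112, 6907 and 7275 on the mdx arrays. Control replicate 4 was the lowest of its group and still above every mdx array. The change was -0.74 (SE 0.10, limma adjusted p = 1.26e-04) as deposited and -0.58 (adjusted p = 3.14e-04) after quantile normalization, and -0.13 scaled to the hybridization controls. Ube2b, a mouse counterpart of yeast Rad6 that also ubiquitinates histones, read 8665, 9303, 10186, 8998 and 9168 on the control arrays and 4697, 6523, 5395, 4874 and 6242 on the mdx arrays, again without overlap. The change was -0.71 (SE 0.09, limma adjusted p = 9.21e-05) as deposited and -0.57 (adjusted p = 1.42e-04) after quantile normalization, and -0.10 scaled to the hybridization controls. Ube2a, its near twin on the X chromosome, did not pass, at -0.05 (SE 0.10, limma adjusted p = 0.747) as deposited and -0.10 (adjusted p = 0.485) after quantile normalization.

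The rises were smaller. Ube2n, which with a Ube2v partner builds signalling chains in place of degradative ones, rose. It read 2554, 2599, 2482, 2432 and 2836 on the control arrays and 2945, 3463, 3205, 3293 and 3517 on the mdx arrays. Every mdx array was above every control array. The change was 0.31 (SE 0.07, limma adjusted p = 0.00484) as deposited and 0.37 (adjusted p = 7.03e-04) after quantile normalization. Its partners Ube2v1 and Ube2v2 did not pass and changed sign with the scaling. Ube2v1 read 5808, 3987, 4623, 4142 and 4306 on the control arrays and 4188, 5119, 4326, 5175 and 3954 on the mdx arrays, with -0.00 (SE 0.11, limma adjusted p = 0.992) as deposited and 0.11 (adjusted p = 0.475) after quantile normalization. Ube2v2 read 739.8, 673, 369, 548 and 584 on the control arrays and 582, 487, 604, 727 and 604 on the mdx arrays, with 0.04 (SE 0.12, limma adjusted p = 0.85) as deposited and -0.02 (adjusted p = 0.932) after quantile normalization. In both the groups overlapped. Ube2z, an enzyme charged by the alternative E1 Uba6, rose. It read 479, 297, 419, 308 and 335 on the control arrays and 501, 706, 607, 484 and 722 on the mdx arrays. The lowest mdx arrays, at 484 and 501, were just above the highest control array, at 479, and 3 control arrays lay below the noise level. After quantile normalization the groups overlapped. The change was 0.40 (SE 0.11, limma adjusted p = 0.0124) as deposited and 0.34 (adjusted p = 0.0192) after quantile normalization.

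Ube2f, Ube2l6, Ube2c, Ube2s and Ube2t were called under neither scaling. Ube2f, for NEDD8, stood at -0.12 (SE 0.16, limma adjusted p = 0.615) as deposited and -0.18 (adjusted p = 0.414) after quantile normalization, and Ube2l6, for the interferon-induced ISG15, at 0.08 (SE 0.11, limma adjusted p = 0.598) as deposited and 0.02 (adjusted p = 0.908) after quantile normalization, below the noise level on all 10 arrays. Ube2c (-0.01), Ube2t (-0.17) and Ube2e3 (-0.04) were also below it on all arrays. Ube2s stood at -0.21, with control replicate 1 at 1465 beside 280.2 to 459 on the other control arrays. The other 5 genes, Ube2e1 (0.21), Ube2h (-0.01 and -0.11), Ube2k (-0.12 and -0.04), Ube2o (-0.42) and Ube2w (0.18), did not pass under either scaling. Ube2o, which joins conjugating and ligase activity in 1 protein, was called lower without mdx replicate 5 (-0.53, adjusted p = 0.0222) or control replicate 4 (-0.52, adjusted p = 0.0298), and Ube2e1 higher without control replicate 5 (0.35, adjusted p = 0.0248).

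Other genes of the pathway came from lists chosen by name, with the brightest probe set standing for each gene. Over all 5767 genes so counted, 16.1% were called higher and 18.6% lower as deposited. After quantile normalization 895 of the 5767 were called higher and 1065 lower. The inducible subunits that replace Psmb5, Psmb6 and Psmb7 in the immunoproteasome rose while Psmb6 rose and Psmb5 and Psmb7 did not pass as deposited. Psmb8 went from 460.0 ± 71.3 to 1653 ± 230 (SD, n = 5), a change of 1.28 (adjusted p = 1.09e-06), and Psmb10 from 601 ± 121 to 1364 ± 363, a change of 0.82 (adjusted p = 6.51e-04). Psmb9 did not reach the noise level on any control array or on 2 of the 5 mdx arrays, with a fitted change of 1.01 (adjusted p = 8.08e-07). It passed the filter on low values through its mdx arrays only, so this p-value is no independent support. Of 6 immunoproteasome and activator genes 3 were called higher and 1 lower under both scalings; the fall, named here after its value was seen, was of Psme4, an alternative cap, at -0.52 as deposited, which stood at 0.05 scaled to the hybridization controls.

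Of 14 assembly and accessory genes 1 was called higher and 2 lower as deposited, and 0 and 1 after quantile normalization. The segregase Vcp, which pulls tagged proteins out of complexes, stood at -0.41 (adjusted p = 0.00694) and at -0.22 (adjusted p = 0.108) after quantile normalization. Nfe2l1, the factor that drives proteasome genes when the proteasome falls short, stood at -0.28 (adjusted p = 0.0364) and -0.16 (adjusted p = 0.206), and Nfe2l2, its relative in redox defence, at 0.28 (adjusted p = 0.0335) and 0.26 (adjusted p = 0.0511). Vcp and Nfe2l1 turned to 0.21 and 0.33 when scaled to the hybridization controls. A dimmer Nfe2l1 set scattered and overlapped between groups, from 30.1 to 677 in control and from 190.5 to 1082 in mdx. Of 7 genes of ubiquitin-like modifiers and E1 enzymes 3 were called higher and 0 lower under both scalings: Uba7, the E1 of ISG15 (0.97), Ufm1, a ubiquitin-like modifier (0.56), and Uba3, in the E1 of NEDD8 (0.31). Uba7 passed the filter on low values through its mdx arrays, all above 134.3, while only control replicates 1 and 3 of its group were above it. The call of Uba7 is therefore no independent support. On every control array Uba7 and Ufm1 lay below the noise level. Dimmer Ufm1 sets did not show its rise, and their groups overlapped. They read 191.9 to 536.3 in control and 325.9 to 463.5 in mdx, and 103.8 to 349.8 and 149.1 to 256.8. The dimmest read -7.6 to 108 in control and 36.9 to 118 in mdx. Of 23 ligase genes 2 were called higher and 3 lower as deposited, and 1 and 3 after quantile normalization, with Rnf4, a ligase of SUMO-tagged proteins, at 0.40 (adjusted p = 0.0018), Huwe1 at -0.34 (adjusted p = 0.0115) and the scaffold Cul2 at -0.25 (adjusted p = 0.0236). The latter pair turned to 0.16 and 0.27 when scaled to the hybridization controls. Of 16 deubiquitinating enzymes 1 was called higher and 6 lower as deposited, and 0 and 6 after quantile normalization, with a median of -0.29. The gene called higher lay below the noise level on all arrays. Usp2, an enzyme whose level follows the circadian clock, went from 7096 ± 1112 to 3468 ± 706, a change of -0.97 (adjusted p = 1.23e-04), and Usp9x stood at -0.75 (adjusted p = 7.25e-04); scaled to the hybridization controls they stood at -0.37 and -0.19. A dimmer Usp2 set also lay lower in mdx, at 2401 to 2763 in control and 887 to 1088 in mdx. Usp15 stood at -0.44 (adjusted p = 3.46e-04) and turned to 0.10 when scaled to the hybridization controls.

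**Figure D5:**
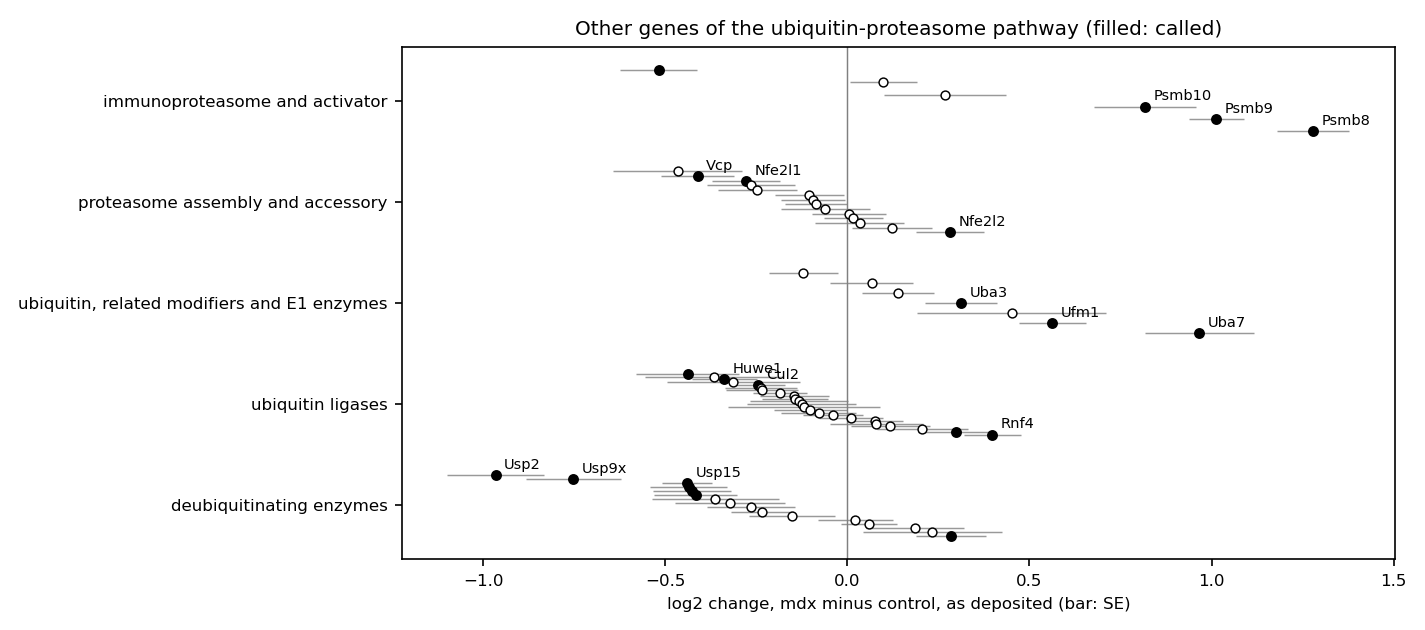
The log2 change (mdx minus control, as deposited, x axis) of each tested gene in 5 pathway lists (y axis), with its SE; filled points are called, and up to 3 genes with the smallest p in each list are named. The 3 immunoproteasome subunits stand at 0.82 to 1.28, and Usp2 and Usp9x at -0.97 and -0.75 (-0.37 and -0.19 scaled to the hybridization controls).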

How the data were processed

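Per the deposited table, each array has an intensity for every probe set, in linear units; the software and the background correction are not given in the sources used here. Values below 0, 27483 in all, were set to 0. Then log2(intensity + 373.2) was taken, with the root mean square of the values below 0 as the noise level. The 66 control probe sets were not tested. Gene names came from the platform's annotation (10833 probe sets with 1 gene, 396 with several, 1193 with none). A gene number in the mouse reference table matched 10817 of the former, and 0 symbols changed. Groups were compared over all 7612 tested probe sets with limma 3.58.1 in R 4.3.3 (lmFit, eBayes with a variance trend, two-sided, Benjamini-Hochberg), and again after quantile normalization. The script was tested on simulated data. All member genes may be named. Values on every array are given for called probe sets whose groups do not overlap, and for members whose call or sign differs between probe sets or scalings. Pathway genes are the 3 with the smallest p of each list. The members and lists were chosen with earlier results of these data known. The number of arrays limits the precision.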

Additional observations from a re-analysis of the deposited data

Results flagged for a closer look

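A test for a single array apart from the other 4 of its group (Dixon's, with a critical value of 0.71) marked 12 of 130 groups of member values; chance alone marks about 1 in 20. Psmd10, called higher, read -227 on control replicate 3, beside 49.2 to 138. Psmd13, not called, read 1466 on mdx replicate 1, beside 2245 to 2363. Psma4, called higher, read 3493 on control replicate 1, beside 4011 to 4172. Psmb3, not called, read 7431 on control replicate 3, beside 8319 to 8486. Ube2c, not called, read 244 on control replicate 2, beside 135 to 153. Ube2d3, called lower, read 1385 on mdx replicate 4, beside 1061 to 1114. Ube2e1, not called, read 2603 on control replicate 5, beside 1330.0 to 1659. Ube2f, not called, read 726 on mdx replicate 5, beside 359.7 to 405. Ube2h, not called, read 1333 on control replicate 1, beside 627 to 681. Ube2r2, called lower, read 8664 on control replicate 4, beside 11190.0 to 12050.0. Ube2s, not called, read 1465 on control replicate 1, beside 280.2 to 459. Ube2s, not called, read 636 on mdx replicate 2, beside 289 to 360.4. Leaving out the array so marked ended none of the calls of Psmd10, Psma4, Ube2d3 and Ube2r2, and led to a call for Psmd13 and Ube2e1.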

How the results depend on the processing

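All 6 rises called as deposited were called under quantile normalization, equal trimmed means, scaling to the hybridization controls, halved and doubled pseudocounts, no filter, no variance trend, the replicate block and each array left out; the stricter filter left Psmd10 untested and kept the other 5. Of the 12 falls, 8 were called after quantile normalization, 10 with equal trimmed means, 11 without a filter, 8 with the replicate block and 0 with scaling to the hybridization controls. A pseudocount of 156.8, added after the data were seen, kept all 18. Among the rises, Psmd10 had passed the filter on low values through its mdx arrays. Under scaling to the hybridization controls the core, cap and Ube2 enzymes had 15, 11 and 11 higher calls and 0 lower in each. Of all probe sets, 46.3% were called higher and 1.64% lower there. After quantile normalization the core had 4 higher and 0 lower, and with the stricter filter the cap had 1 higher. With 1 probe set per gene, 6 members were higher and 10 lower. Leaving out single arrays gave 2 to 4 higher and 1 to 3 lower calls in the core; in the cap and the Ube2 enzymes the counts stayed within 1.5 times. The replicate block left the core with 0 lower calls, and gave 1088 higher and 1150 lower calls over all probe sets against 1202 and 1352. Replicate numbers did not pair the arrays: same-numbered deviations correlated at -0.16 to 0.04. Of the 46 member probe sets below 0 as deposited, 39 turned above 0 under scaling to the hybridization controls, and 0 turned the other way. Of the 39, 17 were called under neither scaling, and the 22 called under either were Psmc3 0.36 and 0.48, Psmd11 0.15, Psmd3 0.40, Psmd4 0.28, Psmd6 0.53, Psmd7 0.40, Psmd8 0.17, Psma1 0.44, Psma3 0.35, Psma6 0.48, Psmb1 0.42, Psmb2 0.35, Psmb3 0.35, Psmb4 0.38, Psmb5 0.38, Psmb7 0.41, Ube2a 0.32, Ube2d2a 0.37, Ube2k 0.43 and 0.39, Ube2v1 0.59 (1 set per value; for Psmd11 the middle set in brightness), where the median of all probe sets is 0.35. The 9 bacterial control probe sets fix that scaling, and the cause of the difference was not tested.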
